A study of Mus musculus with 8 samples.

Results

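Hapln4, Slc1a7, Tnfrsf23, Rhd and Cgref1 are 5 protein-coding genes whose transcripts were less abundant in mouse pituitary neuro-intermediate lobes with a transgene for ACreb3l2, a dominant negative Creb3l2, alone or beside its XBP1 counterpart AXBP1, than in wild-type (WT) lobes. In lobes with AXBP1 alone, their mean levels ran from 29.6% (Slc1a7) to 87.5% (Cgref1) of WT, and the Cgref1 libraries overlapped those of WT. They were chosen from these same measurements, for the size of their differences from WT or AXBP1 lobes, and are 5 of 48526 genes in the count table. All 5 passed the filter on low counts, a mean above 20 normalized counts, which left 15580 genes to test. Because the choice used every comparison with WT or AXBP1, the values of the 5 genes in those comparisons are given as a description, with no p-value. Counts of edgeR calls among the 5 in those comparisons are likewise only a description of the choice. P-values of the 5 genes are printed for ACreb3l2/AXBP1 against ACreb3l2 alone, a comparison whose libraries were nonetheless among those the genes were chosen on.

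Each library was made from a pool of 5 neuro-intermediate lobes of C57B6 mice, per the study's methods males 3 months old, and there were 2 libraries in each of 4 groups. WT lobes carried no transgene. POMC_ACreb3l2 Tg lobes and POMC_AXBP1 Tg lobes, called ACreb3l2 and AXBP1 here, carried a dominant negative form of Creb3l2 or of XBP1 in which an acidic stretch replaces the DNA-binding region, and ACreb3l2/AXBP1 double Tg lobes carried both. A rat POMC promoter drove each transgene, so that it was directed at POMC cells and not at the other cells of the lobe, and the study states that 2 stable lines were kept per transgene and that 1 line is shown. Pools are the replicates, so the p-values measure the spread between pools, and nothing in the labels says whether the pools of a group were made on separate days.

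Melanotropes, the POMC cells of this lobe, cut the precursor POMC into melanocyte-stimulating hormone and endorphin and secrete these in large amounts. Creb3l2 and XBP1 are transcription factors of the bZIP class tied to the endoplasmic reticulum. Creb3l2 is made as a membrane protein that is cut free to enter the nucleus, and XBP1 becomes active when its mRNA is spliced during the unfolded protein response. The 5 genes encode proteins that enter the secretory pathway, and they belong to unrelated families. Hapln4 is a link protein that ties proteoglycans to hyaluronan in the matrix around neurons, and Slc1a7 (EAAT5) is a glutamate transporter best known from the retina. Tnfrsf23 is a decoy receptor for the death ligand TRAIL, Rhd is the Rh blood group membrane protein of red cells, and Cgref1 is a secreted calcium-binding protein with EF-hands.

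Total counts ran from 28256086 to 37988912 per library. Pomc had from 2049870 to 5180565 normalized counts, so the libraries carried the defining transcript of melanotropes. The labels name the cell type as melanotropes, but markers of other cells were present, with a summed 13100 to 36305 normalized counts for erythroid cells, 80307 to 230916 for the anterior lobe and 18486 to 24102 for pituicytes and astrocytes. Normalized counts of Creb3l2 itself were 28682 and 28195 (WT), 27212 and 26775 (ACreb3l2), 18837 and 22833 (AXBP1) and 21205 and 14044 (ACreb3l2/AXBP1). Those of Xbp1 were 11877 and 13436 (WT), 9155 and 9205 (ACreb3l2), 12448 and 13850 (AXBP1) and 17639 and 12854 (ACreb3l2/AXBP1). These dominant negative proteins act on protein, and how reads of the transgenes were counted is not given in the sources used here, so these counts do not check the labels, and the groups are those the libraries are labelled with.

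The sequence before the start site was examined because bZIP factors of this kind bind sites built around the letters ACGT. RefSeq promoter windows on GRCm38.p6, each of 300 bases with 250 before the start site and 50 from it on, were matched by symbol for 4 of the 5 genes, with 5 windows since Cgref1 has 2 start sites, and no window was used for Hapln4. On both strands, ACGT was present in 30.9% of the 32851 mouse windows, TGACG in 20.8%, TGACGTG in 2.01% and CCACG in 32.8%. TGACG and CCACG can overlap ACGT. Among the 4 genes, Slc1a7, Tnfrsf23 and Cgref1 held ACGT, and Rhd did not. The windows of Tnfrsf23 and Rhd are printed because both genes were far lower in the groups with ACreb3l2 than in WT and AXBP1 while 1 window holds ACGT and the other does not, and the 30 bases around the matches of Slc1a7 and Cgref1 are printed beside them, with ACGT in capitals:
Tnfrsf23, 250 bases before the start site, chr7:143685876-143686125, minus strand: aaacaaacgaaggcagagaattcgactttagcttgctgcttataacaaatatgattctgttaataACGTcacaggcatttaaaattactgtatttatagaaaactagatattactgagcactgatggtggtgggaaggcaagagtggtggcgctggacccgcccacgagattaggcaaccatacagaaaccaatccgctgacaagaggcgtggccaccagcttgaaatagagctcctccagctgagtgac
Rhd, 250 bases before the start site, chr4:134864286-134864535, plus strand: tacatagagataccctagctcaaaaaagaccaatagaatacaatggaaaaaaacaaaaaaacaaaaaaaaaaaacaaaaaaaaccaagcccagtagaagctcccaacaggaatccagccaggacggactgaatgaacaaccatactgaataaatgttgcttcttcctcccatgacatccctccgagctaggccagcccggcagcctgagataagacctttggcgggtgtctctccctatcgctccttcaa
Slc1a7, around its match, chr4:107968334-107968363, plus strand: ggacgccccgaccACGTggcctgctctaat
Cgref1, around both matches, chr5:30945466-30945495, minus strand: agccgggagggcgACGTggaatggccACGT
Positions are counted from the first base of the RefSeq transcript, which is 0. In Tnfrsf23 the match lay at -185, with TGACG on the other strand overlapping it at -184, and a further ACGT lay at 35. The match of Slc1a7 lay at -59, inside the first exon of the longer GENCODE model, which covered 74 of the 250 bases before the RefSeq start. Cgref1 had its matches at -2 and 11 from 1 start site, which are -55 and -42 from the other, and TGACG at -217 from the first. Its ACGT matches also lay inside the first exon of the GENCODE model, which covered 111 and 164 of the 250 bases before its RefSeq starts. The window of Rhd held none of ACGT, TGACG and TGACGTG, and CCACG lay at 5. All 5 windows held CCACG, and none held TGACGTG. These are letter matches only.

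Tnfrsf23 (ENSMUSG00000037613, mm10 chromosome 7, 143665809 to 143685872, minus strand, 6 exon blocks) gave values that were close within each group. The ratio of the higher to the lower normalized count was at most 1.22, although in FPKM the values were 0.507 and 0.312 (ACreb3l2) and 0.275 and 0.445 (ACreb3l2/AXBP1). Normalized counts were 234 and 285 in WT, 175 and 178 in AXBP1, 39.6 and 37.7 in ACreb3l2, and 34.6 and 36.4 in ACreb3l2/AXBP1. No pair of groups overlapped in normalized counts, while ACreb3l2 and ACreb3l2/AXBP1 did in FPKM, and the 4 libraries that carry ACreb3l2 lay at or below 39.6 where the AXBP1 libraries lay at or above 175. The log2 difference from WT was -2.74 (SE 0.196) in ACreb3l2, a fitted level 6.68-fold lower, and -2.86 (SE 0.197) in ACreb3l2/AXBP1, 7.27-fold lower. In AXBP1 it was -0.56 (SE 0.172), 1.47-fold lower. Levels were thus 14.9%, 13.7% and 68% of the WT mean in that order. Against AXBP1, the difference was -2.18 (SE 0.197) in ACreb3l2 and -2.31 (SE 0.198) in ACreb3l2/AXBP1. An antisense transcript, E230032D23Rik, shares 164 exonic bases with Tnfrsf23 (4.14% of its exons), had a mean of 1.38 raw counts, and cannot be told apart from it in that stretch if counting ignored strand.

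Related receptor genes lie beside Tnfrsf23, and none of their differences was called. Tnfrsf22, another decoy receptor 16.1 kb away, gave 32.1 and 20.7 normalized counts (WT), 38.5 and 21.9 (AXBP1), 37 and 43.4 (ACreb3l2) and 43.5 and 32 (ACreb3l2/AXBP1). Tnfrsf26, 37.1 kb away, gave 53.4 and 27.3 (WT), 55.4 and 47.3 (AXBP1), 39.6 and 51.4 (ACreb3l2) and 57.4 and 75.5 (ACreb3l2/AXBP1). The log2 difference from WT in ACreb3l2/AXBP1 was 0.50 for Tnfrsf22 (SE 0.357, edgeR adjusted p = 0.37). For Tnfrsf26 it was 0.71 (SE 0.33, edgeR adjusted p = 0.182). Neither gene was called in any of the 6 comparisons. In a list of 12 death receptor genes, 11 were tested and only the ligand Tnfsf10 (TRAIL) was called. Its normalized counts were 415 and 373 (WT), 526 and 490 (AXBP1), 577 and 541 (ACreb3l2) and 654 and 715 (ACreb3l2/AXBP1). Tnfsf10 rose by 0.80 on the log2 scale in ACreb3l2/AXBP1 (SE 0.111, edgeR adjusted p = 0.00339, called in 14 of 15 alternatives). In ACreb3l2 it rose by 0.51 (SE 0.112, edgeR adjusted p = 0.0421), a call kept in 5 of 14 alternatives and lost without either ACreb3l2 library, WT replicate 2 or either AXBP1 library, with adjusted p from 0.00882 to 0.409. Between ACreb3l2 and AXBP1, the pair of single transgenic groups, Tnfsf10 differed by 0.14 (SE 0.111, edgeR adjusted p = 0.788).

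Rhd (ENSMUSG00000028825, chromosome 4, 134864536 to 134896172, plus strand, 10 exon blocks) followed a like pattern at a lower level. Normalized counts were 69 and 62.2 in WT, 54.4 and 48.5 in AXBP1, 7.91 and 13.3 in ACreb3l2/AXBP1, and 10.3 and 6.85 in ACreb3l2. Every library with ACreb3l2 held from 6 to 15 raw reads of Rhd, against 42 to 71 in the WT and AXBP1 libraries. The ACreb3l2 and ACreb3l2/AXBP1 ranges overlapped in normalized counts, though not in FPKM (0.184 and 0.16 against 0.208 and 0.264), and no other pair of groups did. Compared with WT, the log2 difference was -2.89 (SE 0.341) in ACreb3l2, 7.4-fold lower, and -2.60 (SE 0.328) in ACreb3l2/AXBP1, 6.07-fold lower. For AXBP1 it was -0.35 (SE 0.275). Against AXBP1, Rhd was lower by 5.81-fold in ACreb3l2 and by 4.76-fold in ACreb3l2/AXBP1.

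Rhd is a red cell gene, so red cell transcripts in the same libraries were set beside it. The summed erythroid markers (11 of 12 listed genes in the table, 7 tested) came to 27824 and 13100 normalized counts (WT), 20833 and 15173 (AXBP1), 36305 and 19431 (ACreb3l2) and 16323 and 18979 (ACreb3l2/AXBP1). The highest erythroid sum was in ACreb3l2 replicate 1, a library with 10.3 normalized counts of Rhd, and Hbb-bs alone gave 25662 of it. By edgeR, 0 of the 7 tested markers was called in any of the 6 comparisons. At most 6.99% of all genes were called lower there and 3.06% higher, so this count says little. Any part of red cell content in the Rhd values was not tested. Rhag, which encodes the protein that Rhd joins in the red cell membrane, had at most 2.97 normalized counts in any library and 0 reads in 3 of them. It was below the filter, as were Rhbg and Rhcg, ammonia channels of the same family, so that 0 of 3 other Rh genes were tested. The presence of Rhd at 48.5 to 69 normalized counts in WT and AXBP1 lobes was measured beside near absence of Rhag.

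Cgref1 (ENSMUSG00000029161, chromosome 5, 30933143 to 30945591, minus strand, 6 exon blocks) had the highest level per length of the 5 genes in WT, 4.06 ± 0.748 FPKM (SD, n = 2). Its normalized counts were 176 and 243 in WT, 202 and 165 in AXBP1, 62.3 and 37.3 in ACreb3l2/AXBP1, and 41.3 and 33.1 in ACreb3l2. WT and AXBP1 overlapped, as did ACreb3l2 and ACreb3l2/AXBP1, while each of the first pair lay above both of the second. The log2 difference from WT was -2.48 (SE 0.288) in ACreb3l2 and -2.08 (SE 0.278) in ACreb3l2/AXBP1, levels of 17.8% and 23.8% of the WT mean. In AXBP1 the level was 87.5% of that mean, with a log2 difference of -0.19 (SE 0.252), which became 0.06 without WT replicate 2. Set against AXBP1, Cgref1 was 4.89-fold lower in ACreb3l2 and 3.7-fold lower in ACreb3l2/AXBP1.

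A list of 4 cargo genes was set beside Cgref1, built on Mcfd2, an EF-hand protein that carries glycoproteins out of the endoplasmic reticulum together with the lectin Lman1. All 4 were tested, and Lman1 was the only one called. Normalized counts of Lman1 were 15256 and 16205 (WT), 14615 and 13207 (AXBP1), 11391 and 11137 (ACreb3l2) and 11134 and 11752 (ACreb3l2/AXBP1). It fell by 0.48 on the log2 scale in ACreb3l2 (SE 0.0883, edgeR adjusted p = 0.0182, from 5.78e-05 to 0.141 over the alternatives) and by 0.46 in ACreb3l2/AXBP1 (SE 0.0883, edgeR adjusted p = 0.0139, from 7.97e-05 to 0.0751). These calls were kept in 8 of 14 and in 11 of 15 alternatives, and both were lost without WT replicate 2, the former also without either ACreb3l2 library and the latter without ACreb3l2/AXBP1 replicate 2.

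Hapln4 (ENSMUSG00000007594, chromosome 8, 70083457 to 70090862, plus strand, 5 exon blocks) showed the largest fitted difference from WT of the 5 genes, and the least even controls. Normalized counts were 105 and 454 in WT, 91.9 and 80.8 in AXBP1, 25.8 and 20.6 in ACreb3l2, and 30.7 and 20.4 in ACreb3l2/AXBP1. WT replicate 2 stood 4.32-fold above WT replicate 1. Still, both WT libraries lay above all 6 transgenic ones. The WT mean was 279 ± 247 (SD, n = 2), so each comparison with WT depends on which control is read. Fitted log2 differences from WT were -3.57 (ACreb3l2, SE 0.718), -3.45 (ACreb3l2/AXBP1, SE 0.707) and -1.68 (AXBP1, SE 0.626). Without WT replicate 2 they became -2.16, -2.05 and -0.28, and without WT replicate 1 they became -4.27, -4.15 and -2.39. On log2(FPKM + 0.1) the differences were -2.70 in ACreb3l2 and -2.67 in ACreb3l2/AXBP1. In comparisons with AXBP1 the difference uses no WT level, but its SE comes from the fit of all 8 libraries and carries the spread of the WT pair. There Hapln4 was lower by 3.68-fold in ACreb3l2 (log2 difference -1.88, SE 0.742) and by 3.4-fold in ACreb3l2/AXBP1 (-1.76, SE 0.729).

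WT replicate 2 also had the highest sums of melanotrope markers (5619281 normalized counts, against 3805069 in WT replicate 1) and of anterior lobe markers (230916 against 155669). Pomc (5180565 against 3460466) and Gh (195777 against 115824) made up most of these sums. Pcsk1, Prl, Cga and Fshb were lower in WT replicate 2 than in WT replicate 1, and the other markers of these lists were higher. The part of these cells in the Hapln4 value was not tested. Markers of neurons and axons, the cells best known for Hapln4, summed to 31106 and 29005 in WT and to between 30093 and 34098 in the transgenic libraries, and 0 of 6 were called in any comparison by edgeR. Of 14 genes of the hyaluronan matrix, 10 were tested and 0 were called in any of the 6 comparisons. At most 6.99% of all genes were called lower there and 3.06% higher, so 0 calls do not set these 2 lists apart from other genes. Ncan, which encodes the proteoglycan neurocan and lies 2.22 kb from Hapln4, gave 523 and 374 normalized counts (WT), 543 and 617 (AXBP1), 791 and 473 (ACreb3l2) and 484 and 533 (ACreb3l2/AXBP1). Its log2 difference in ACreb3l2/AXBP1 was 0.18 (SE 0.248, edgeR adjusted p = 0.663). Hapln1, the link protein of cartilage and brain matrix, had group means from 74.3 to 86.8.

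Slc1a7 (ENSMUSG00000008932, chromosome 4, 107968332 to 108013532, plus strand, 11 exon blocks) had the lowest level per length in WT of the 5 transcripts (0.43 ± 0.051 FPKM, SD, n = 2) and was the one with a large difference in AXBP1 that rested on even controls. Normalized counts were 51.5 and 58.9 in WT, 11.9 and 20.8 in AXBP1, 29.2 and 6.85 in ACreb3l2, and 8.9 and 1.78 in ACreb3l2/AXBP1. Each transgenic library lay below both WT libraries, and the ranges of ACreb3l2 and AXBP1 overlapped. ACreb3l2/AXBP1 replicate 2 held 2 reads of Slc1a7, and its normalized count of 1.78 has an exact Poisson 95% interval from 0.215 to 6.41, which covers counting error only. Group means came to 32.7% (ACreb3l2), 29.6% (AXBP1) and 9.67% (ACreb3l2/AXBP1) of the WT mean. The log2 differences from WT were -1.54 (SE 0.574), -1.77 (SE 0.598) and -3.38 (SE 0.7) in that order. The libraries of ACreb3l2 differed by 4.27-fold and those of ACreb3l2/AXBP1 by 5.01-fold. In ACreb3l2 the difference from WT was -2.98 without replicate 1 and -0.91 without replicate 2, and in ACreb3l2/AXBP1 it was -4.86 and -2.62. On log2(FPKM + 0.1), a scale that understates changes of low genes, the difference in ACreb3l2/AXBP1 was -1.89 from WT and -0.56 from AXBP1, beside -3.38 and -1.61 in the fit of counts.

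Of the 6 other carriers of the family, 5 were tested, and Slc1a5, a neutral amino acid exchanger, was the only one called. It gave 467 and 466 normalized counts (WT), 406 and 396 (AXBP1), 376 and 326 (ACreb3l2) and 332 and 300 (ACreb3l2/AXBP1). Slc1a5 fell by 0.56 on the log2 scale in ACreb3l2/AXBP1 (SE 0.121, edgeR adjusted p = 0.0211), a call kept in 10 of 15 alternatives and lost without WT replicate 2 or ACreb3l2/AXBP1 replicate 2 (adjusted p from 0.00337 to 0.172 over all alternatives). Across the lists for all 5 genes, 39 genes were named and 30 tested. In ACreb3l2/AXBP1 against WT, 2 of the 30 were called lower, beside 6.99% of all genes tested, and 1 higher, beside 3.06%. In ACreb3l2 against WT, 1 was called lower, beside 2.50%, and 1 higher, beside 0.539%. These counts are too small to set the lists apart from other genes.

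**Figure D1:**
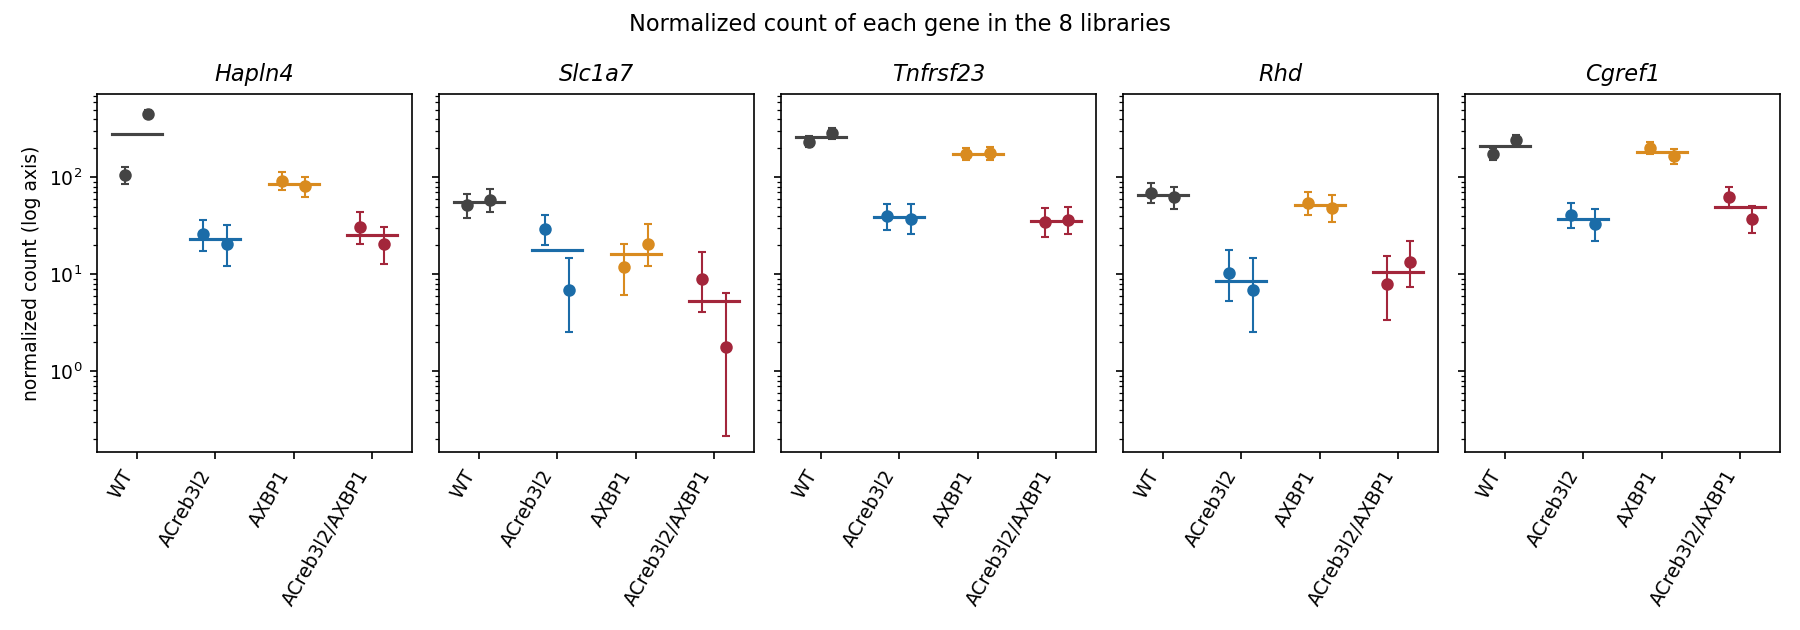
Normalized count (log axis) of each gene in each of the 8 libraries, by group, with exact Poisson 95% intervals as bars on the points and the group mean as a horizontal line. Tnfrsf23, Rhd and Cgref1 sit lower in the ACreb3l2 and ACreb3l2/AXBP1 libraries than in AXBP1, where Rhd and Cgref1 are at 78.4% and 87.5% of WT and Tnfrsf23 at 68%, the WT libraries of Hapln4 stand apart at 105 and 454, and Slc1a7 is lower in all 3 transgenic groups.

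Per length, the order of the genes in WT was Cgref1 (4.06 ± 0.748 FPKM), Tnfrsf23 (2.82 ± 0.0672), Hapln4 (2.04 ± 1.78), Rhd (1.47 ± 0.0822) and Slc1a7 (0.43 ± 0.051), each as mean ± SD of 2 libraries. Hapln4, at 0.78 and 3.29 FPKM, could not be placed between its neighbours in this order. In ACreb3l2/AXBP1 the FPKM were 0.925 ± 0.244, 0.36 ± 0.12, 0.174 ± 0.054, 0.236 ± 0.0402 and 0.0452 ± 0.0408 for the same genes, so Rhd and Hapln4 changed places within a gap about as large as their SDs. In bulk lobes, fewer cells that make a transcript and less of it per cell cannot be told apart.

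Set against all 15580 genes tested, the counts of called genes were as follows. In ACreb3l2 against WT, edgeR called 3 of the 5 genes lower (Tnfrsf23, Rhd and Cgref1), beside 2.50% of all genes, and all 5 lay below WT without overlap, beside 23.2%. DESeq2 and limma on FPKM each called 4 of the 5 there, with Hapln4 as the added gene. In ACreb3l2/AXBP1 against WT edgeR called 5 of 5 lower, beside 6.99%, and all 5 did not overlap, beside 28.7%. DESeq2 called 3 of the 5 in that comparison and gave Slc1a7 and Rhd no adjusted p. Against AXBP1, Tnfrsf23, Rhd and Cgref1 were called lower in ACreb3l2 (beside 0.680%) and in ACreb3l2/AXBP1 (beside 0.616%), and in both comparisons the calls of Rhd and Cgref1 were lost when certain single libraries were left out, among them AXBP1 replicate 1. The libraries did not overlap for 4 genes in the former (all but Slc1a7, beside 22.4%) and for 5 in the latter (beside 24.0%). In AXBP1 against WT, edgeR called 0 of the 5 and 0 (0%) of all genes. There 1554 genes had an unadjusted p under 0.05, 3 of the 5 among them, while DESeq2 called 80 genes and limma on FPKM 6, with 0 of the 5 in either (DESeq2 gave Slc1a7 and Rhd no adjusted p there). In the same comparison 4 of the 5 (all but Cgref1) lay below WT without overlap, beside 23.8%. Since the genes were chosen for these differences, their counts describe the choice. The comparisons also share libraries, WT in 3 of them and AXBP1 in 3, so they are not independent of one another.

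By fitted difference among the 14027 coding genes tested, called or not, Hapln4 and Slc1a7 had the 3rd and 4th largest falls in ACreb3l2/AXBP1 against WT and Tnfrsf23 the 6th. Both of the former places rested on single libraries. Without WT replicate 2 Hapln4 was at -2.05, beside -2.72 for Tnfrsf23 and -2.68 for Rhd, and its call held in 9 of 15 alternatives. Without ACreb3l2/AXBP1 replicate 2 Slc1a7 was at -2.62, beside -2.91 for Tnfrsf23 and -3.04 for Rhd, and its call was lost there and without WT replicate 2. On log2(FPKM + 0.1), Slc1a7 was at -1.89, a smaller fall than those of Tnfrsf23 (-2.69), Hapln4 (-2.67), Rhd (-2.23) and Cgref1 (-2.03). In ACreb3l2/AXBP1 against WT, the called genes next to Tnfrsf23 (-2.86, SE 0.197) were Aldh1l2 at -2.97 (SE 0.196) and Mettl21b at -2.70 (SE 0.428), both within its SE. Rhd was 6th in ACreb3l2 against WT, and the called genes next to it, Galnt5 at -2.89 (SE 0.385) and the proline synthesis enzyme Pycr1 at -2.79 (SE 0.314), lay within its SE. Cgref1 was 6th in ACreb3l2 against AXBP1, with Pycr1 at -2.32 (SE 0.314) and Gnat2 at -2.21 (SE 0.217) likewise within its SE, so none of these orders is resolved.

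The comparison of ACreb3l2/AXBP1 with ACreb3l2 asks whether the second transgene added to the first. Its differences rest on the libraries of those 2 groups, and its SEs and p-values on the spread within all 4 groups. No gene was called by edgeR in either direction, 0% of 15580, and 0 of the 5, although 1112 genes, 1 of the 5 among them, had an unadjusted p under 0.05. DESeq2 called 36 genes and limma on FPKM 0, with 0 of the 5 in either. The gene with the unadjusted p under 0.05 was Slc1a7, whose log2 difference was -1.84 (SE 0.781, 95% interval -3.37 to -0.31, edgeR adjusted p = 0.688), 3.59-fold lower with both transgenes. It passed in 1 alternative, without the filter on low counts (-1.85, edgeR adjusted p = 0.0104), and its libraries overlapped (29.2 and 6.85 against 8.9 and 1.78). Leaving out 1 library moved the Slc1a7 difference from -0.39 without ACreb3l2 replicate 1 to -3.33 without ACreb3l2/AXBP1 replicate 1, in a fit of only the 2 groups the edgeR adjusted p was 0.811, and on log2(FPKM + 0.1) with limma the difference was -0.73. Slc1a7 and Rhd passed the filter on their mean over all libraries, while their means in both groups compared here, 18 and 5.34 for Slc1a7 and 8.59 and 10.6 for Rhd, lay under 20, so these 2 tests say little. Tnfrsf23 differed by -0.12 (SE 0.22, 95% interval -0.55 to 0.31, edgeR adjusted p = 0.895), and was the 1 gene of the 5 whose libraries were both lower in normalized counts, beside 18.6% of all genes, though not in FPKM. Hapln4 differed by 0.12 (SE 0.826, -1.50 to 1.74, edgeR adjusted p = 0.977) and Rhd by 0.29 (SE 0.417, -0.53 to 1.10, edgeR adjusted p = 0.877). Cgref1 differed by 0.40 (SE 0.309, -0.21 to 1.01, edgeR adjusted p = 0.758). A missed threshold does not show that the levels of a gene were alike.

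How far the double transgenic level departed from the sum of both single differences from WT on the log2 scale was computed as an interaction and is given without a test. It was -0.08 (SE 0.842) for Slc1a7. For Tnfrsf23 it was 0.43 (SE 0.28), for Cgref1 0.59 (SE 0.399), for Rhd 0.63 (SE 0.501) and for Hapln4 1.80 (SE 1.04). With SEs of this size, little can be read from these values.

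**Figure D2:**
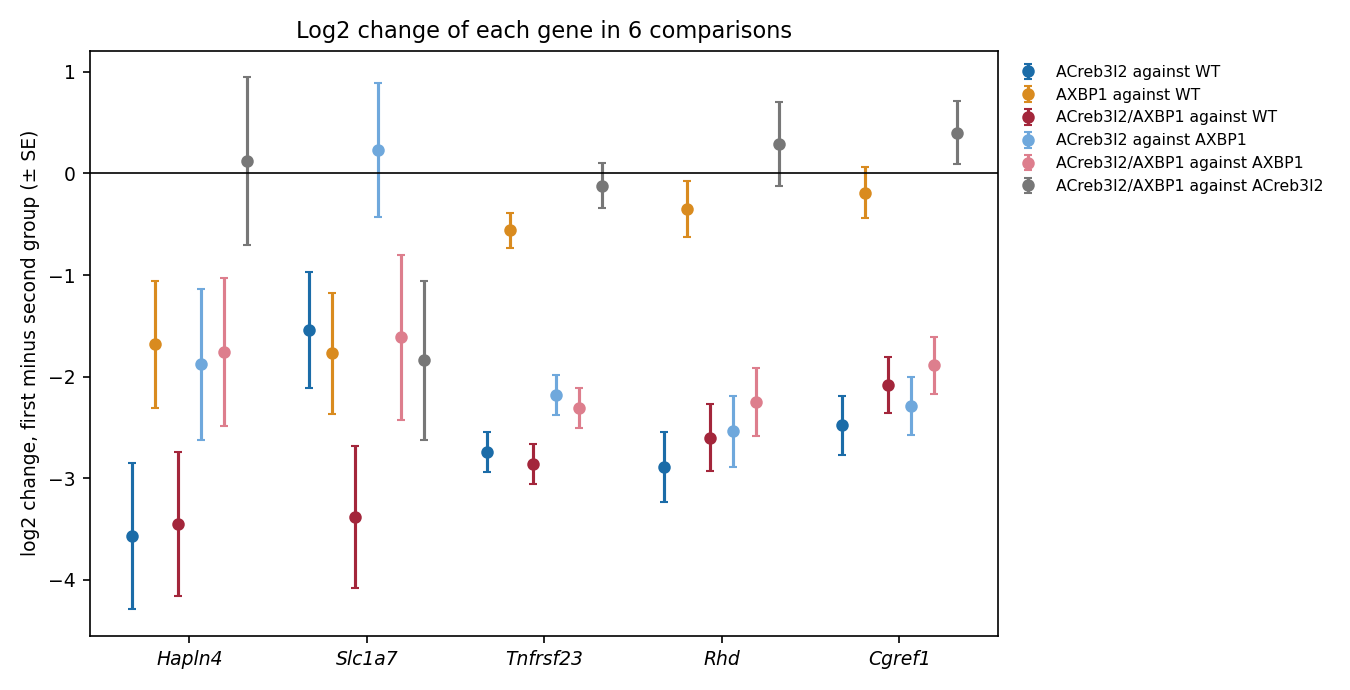
Log2 difference, first minus second group, with its SE, for each gene in each of the 6 comparisons from the edgeR fit. For Tnfrsf23, Rhd and Cgref1 the AXBP1 against WT points lie between -0.56 and -0.19 while the ACreb3l2 against WT points lie between -2.89 and -2.48, and for Slc1a7 the ACreb3l2 and AXBP1 points lie close together at -1.54 and -1.77.

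For each of the 5 genes the 2 nearest tested coding genes on each side were examined, 20 in all. None was called in any of the 6 comparisons except Preb, 5.26 kb from Cgref1, which encodes a factor of vesicle budding from the endoplasmic reticulum. This 1 call of 20 fell in ACreb3l2/AXBP1 against WT, where 6.99% of all genes were called lower and 3.06% higher, so the count does not set the neighbours apart from other genes. Preb fell by 0.64 on the log2 scale in ACreb3l2/AXBP1 against WT (SE 0.119, edgeR adjusted p = 0.0124, from 1.02e-06 to 0.118 over 15 alternatives), a call lost without WT replicate 2 or ACreb3l2/AXBP1 replicate 2. Its difference in ACreb3l2 was -0.46 (SE 0.119, edgeR adjusted p = 0.0761). Khk, on the other side of Cgref1 at 1.9 kb, differed by -0.00 (SE 0.148, edgeR adjusted p = 0.993) in ACreb3l2/AXBP1. Podn, 1.26 kb from Slc1a7, differed by -0.32 (SE 0.238, edgeR adjusted p = 0.391), and Tmem50a, 1.68 kb from Rhd, by 0.13 (SE 0.0839, edgeR adjusted p = 0.338). Rsrp1, 27.4 kb from Rhd, differed by 0.70 (SE 0.186, edgeR adjusted p = 0.0508), in the direction opposite to Rhd.

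**Figure D3:**
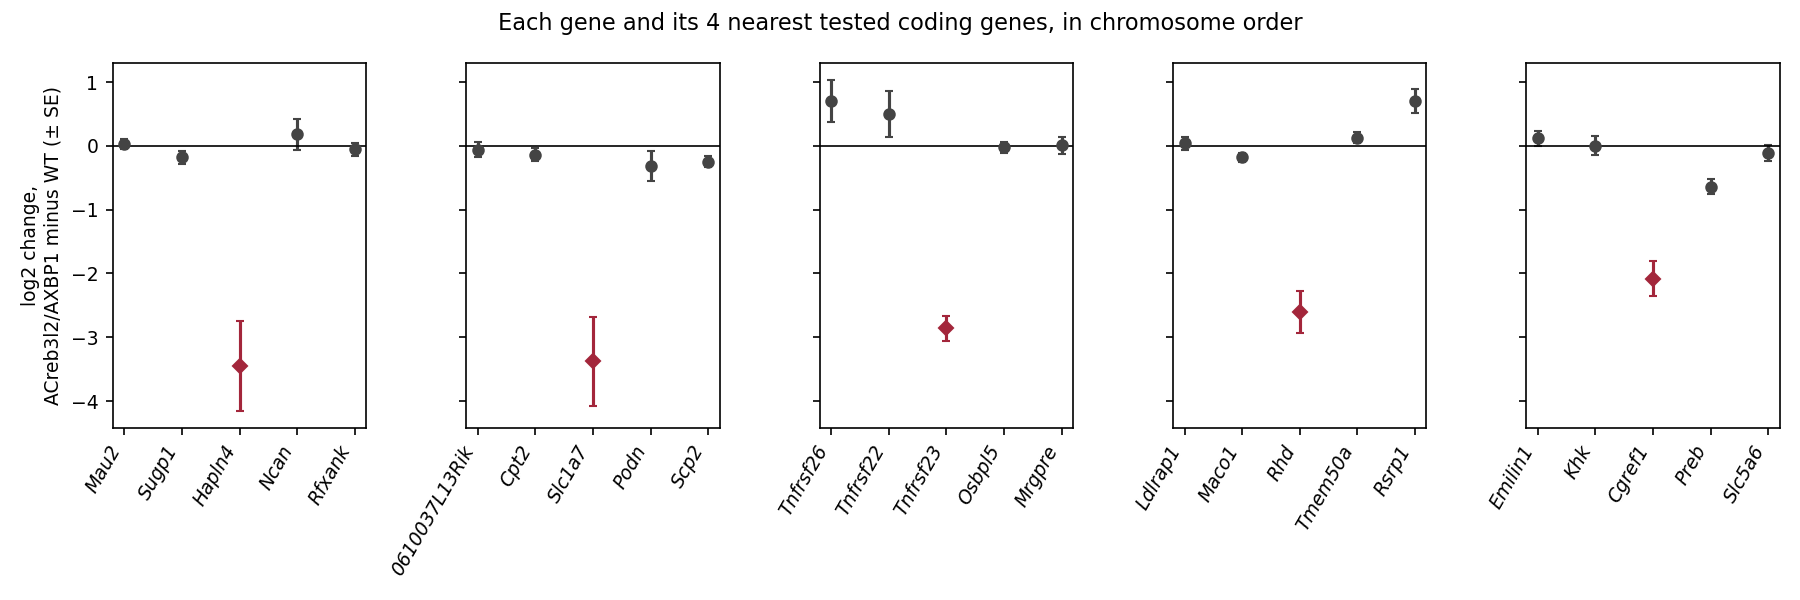
Log2 difference with its SE in ACreb3l2/AXBP1 against WT for each of the 5 genes (diamonds) and its 4 nearest tested coding genes (circles), in chromosome order and not to distance. The 5 genes lie between -3.45 and -2.08, and the lowest of the 20 neighbours is Preb at -0.64.

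**Figure D4:**
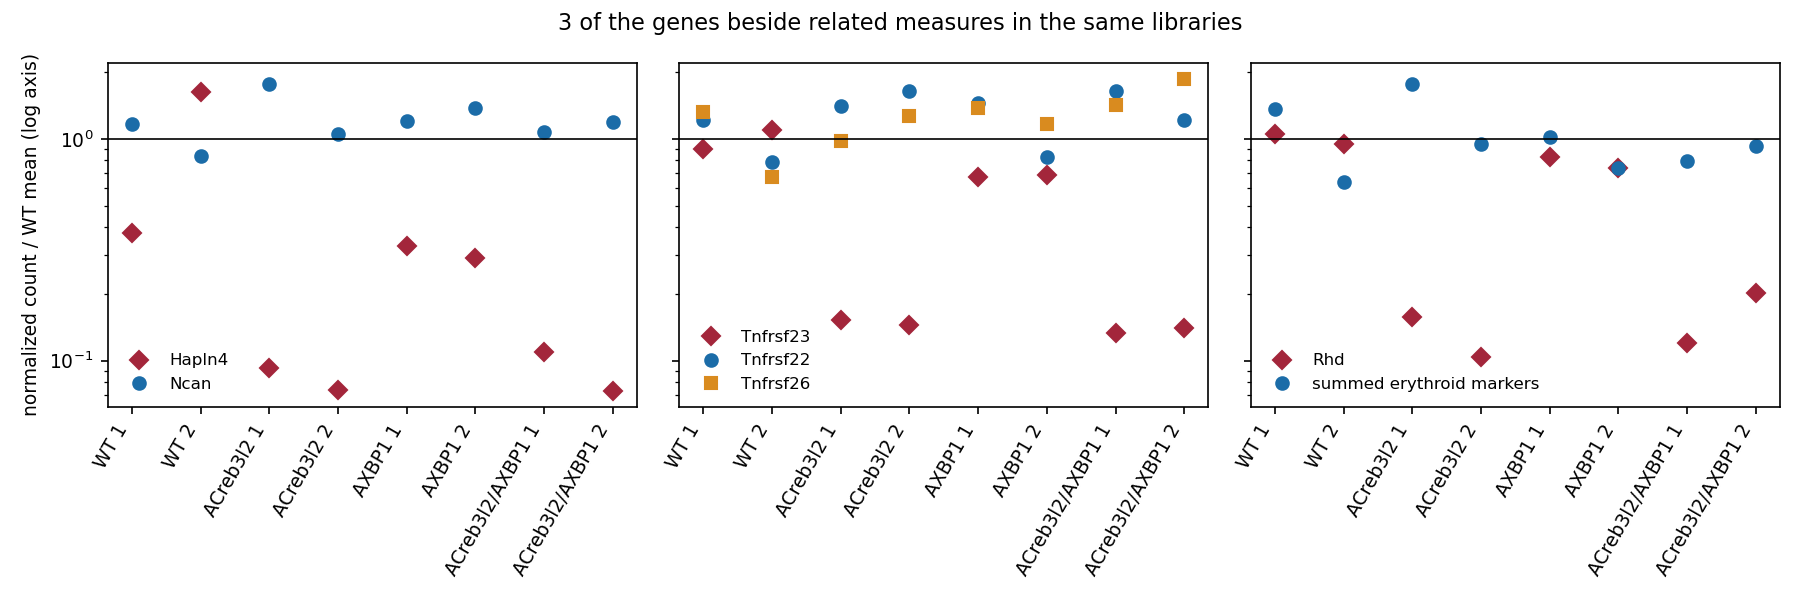
Normalized count in each library divided by the mean of the WT libraries (log axis) for Hapln4 and Ncan, for Tnfrsf23, Tnfrsf22 and Tnfrsf26, and for Rhd and the summed erythroid markers. The related measures stay near or above the WT mean in the ACreb3l2 and ACreb3l2/AXBP1 libraries, where Tnfrsf23 is at 14.9% and 13.7% and Rhd at 13.1% and 16.2% of its WT mean.

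Other genes whose log2 counts rose and fell with the 5 over the 8 libraries were found by Pearson's r, which takes no account of the size of a change. It describes likeness only, since the libraries are those the genes were chosen on. Some of the genes found changed far less than the 5. Mean normalized counts in WT and ACreb3l2 were 4903 and 3955 for Gpr107, 427 and 371 for Cyb561d2, and 3065 and 2352 for Poldip2. The 3 nearest to each gene had r from 0.986 to 0.997. For Tnfrsf23 they were Fam98a, the Golgi GDP-fucose transporter Slc35c1, and P3h4, a partner of collagen-modifying enzymes of the endoplasmic reticulum. Normalized counts of Slc35c1 were 1040 and 1276 (WT), 945 and 999 (AXBP1) and between 520 and 523 in the 4 libraries with ACreb3l2. Gpr107, 3632451O06Rik and Ikbip were nearest to Rhd. Poldip2, Apold1 and Gnat2, the cone transducin, were nearest to Cgref1, and Gnat2 was nearly as different as Cgref1 itself, with 226 and 311 normalized counts in WT, 258 and 247 in AXBP1, 55 and 53.7 in ACreb3l2, and 90 and 69.2 in ACreb3l2/AXBP1. Ttc34, Cyb561d2 and Hdlbp, an RNA-binding protein, were nearest to Hapln4, and Hdlbp had group means of 13289 in WT, 10705 in AXBP1, 7091 in ACreb3l2 and 6868 in ACreb3l2/AXBP1. Ttc39c, the ubiquitin-conjugating enzyme Ube2s and the splicing regulator Ptbp1 were nearest to Slc1a7, with Ttc39c at means of 1675, 976, 1067 and 681 in the same order of groups.

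Some cell type markers moved with the groups. Of 8 melanotrope markers, 2 were called lower in ACreb3l2/AXBP1 against WT, beside 6.99% of all genes, and their sum was 3109784 and 2273824 normalized counts against 3805069 and 5619281. In ACreb3l2 the sum was 4203533 and 3796371, with 0 of 8 called by edgeR, beside 2.50% of all genes called lower and 0.539% higher. Pomc made up most of these sums, with 3863161 and 3415248 in ACreb3l2 against 3460466 and 5180565 in WT. Tbx19, Pcsk1 and Scg2 lay below WT in ACreb3l2 without overlap, as did 23.2% of all genes, and the other markers overlapped WT. Log2 differences of Tnfrsf23, Rhd and Cgref1 from WT were -2.74, -2.89 and -2.48 in ACreb3l2. In ACreb3l2/AXBP1 they were -2.86, -2.60 and -2.08. One of 8 pituicyte and astrocyte markers was called higher in ACreb3l2/AXBP1, beside 3.06%. Anterior lobe markers summed to 80307 and 84302 normalized counts in AXBP1, below all 6 other libraries, which ran from 106631 to 230916. Gh made up most of these sums, with 49758 and 63661 in AXBP1 against 115824 and 195777 in WT. Prl and Tshb were also lower in both AXBP1 libraries than in WT, while Lhb, Fshb, Cga and Pou1f1 overlapped WT. By edgeR, 0 of 7 of them were called in any comparison, and in AXBP1 against WT 0% of all genes were called lower. Any part of these shifts in the values of the 5 genes was not tested.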

How the data were processed

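RNA-seq of pooled neuro-intermediate lobes was read from the deposited tables, with 0 columns left unmapped to a sample. The authors trimmed 50 base paired reads with Trimmomatic, aligned them to mm10 with Tophat and deposited HTSeq raw counts per Ensembl gene. FPKM values were also deposited by the authors, whose software list names cufflinks and another aligner. The annotation release and strand setting are not given in the sources used here. Labels state ribosomal depletion, the methods text an mRNA kit. The authors tested with DESeq.

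Here counts were fitted in edgeR 4.0.16 (R 4.3.3, TMM factors from 0.913 to 1.1, robust quasi-likelihood test, common biological coefficient of variation 0.107) with 1 mean per group over 8 libraries. Genes with a mean normalized count above 20 were tested, and a gene was called at a Benjamini-Hochberg adjusted p under 0.05 over all 15580. Normalized counts are TMM-scaled to the mean depth of 32458310. Intervals of counts cover counting error only. Alternatives were DESeq2 1.42.0, limma 3.58.1 on log2(FPKM + 0.1), other scaling, no filter, 2 groups only, a replicate block and leaving out each library. The script was tested on simulated data. Replicate numbers are shared by the groups, but same-numbered libraries did not deviate together (r from -0.197 to 0.0887 over 6 pairs of groups), so no block was used.

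The 5 genes, the gene lists and the tests were chosen with earlier results of these data known. Named genes are the 5, members of 5 lists of relatives, the 2 nearest tested coding genes on each side, the 3 most alike by r of log2 CPM (prior count 2), and rank neighbours. With a prior count of 0.5, the genes named as most alike to Slc1a7 ranked 2, 3 and 4. Ikbip then ranked 5 for Rhd, and the others kept their places. Loci are those of GENCODE M21 on mm10. Promoter windows are RefSeq's.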

Additional observations from a re-analysis of the deposited data

How the results depend on the processing

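Alternatives were set beside the main numbers of genes called, which were 473 for ACreb3l2 against WT, 0 for AXBP1 against WT, 1566 for ACreb3l2/AXBP1 against WT, 112 for ACreb3l2 against AXBP1, 97 for ACreb3l2/AXBP1 against AXBP1 and 0 for ACreb3l2/AXBP1 against ACreb3l2. In that order DESeq2 gave 755, 80, 2085, 263, 283 and 36, limma on FPKM 284, 6, 1120, 45, 37 and 0, scaling by library size alone 304, 0, 1650, 88, 55 and 0, no filter on low counts 1455, 628, 3209, 730, 755 and 513, and a fit of only the 2 groups compared 275, 2, 654, 145, 122 and 0. Leaving out 1 library gave 153 to 618, 0 to 9, 218 to 2084, 18 to 152, 7 to 155 and 0 to 11, and the lone library of a group is then assumed to vary like the others. In the comparisons with calls, the lowest numbers came without ACreb3l2 replicate 2 (153), ACreb3l2/AXBP1 replicate 2 (218), AXBP1 replicate 1 (18 and 7) or AXBP1 replicate 2 (also 7). The replicate block gave 321, 3, 1113, 95, 58 and 0, and since the libraries share only a number this is not a paired result. With the numbers of ACreb3l2/AXBP1 crossed, an alternative added after seeing the data, 2059 genes were called against WT. The cause of these shifts was not tested.

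For the 5 genes, 355 values against WT or AXBP1 were recomputed. Of these, 319 moved by less than the spread between replicates, 36 moved further, and no called difference reversed. Differences that were not called did change sign. Slc1a7 in ACreb3l2 against AXBP1, 0.23 in the main fit, ran from -1.22 to 0.86 when 1 library was left out. Cgref1 in AXBP1 against WT, -0.19 in the main fit, became 0.06 without WT replicate 2. Calls of the 5 genes in these comparisons follow from the choice and support nothing, and they depend on single libraries: in ACreb3l2/AXBP1 against WT Slc1a7 missed without WT replicate 2 or ACreb3l2/AXBP1 replicate 2, and Hapln4 passed in 9 of 15 alternatives. Against AXBP1, Rhd passed in 10 and Cgref1 in 11 of 14 alternatives in each comparison, Rhd missing without any 1 library of the groups compared and Cgref1 without 3 of these 4, while Hapln4 passed in 5 of 14, among them without either WT library. For ACreb3l2/AXBP1 against ACreb3l2, Slc1a7 passed without the filter (-1.85, adjusted p = 0.0104). Leaving out 1 library gave -3.33 to -0.39 for Slc1a7, -0.20 to 0.38 for Hapln4, -0.15 to 0.64 for Rhd and -0.01 to 0.73 for Cgref1, with the sign reversed for Hapln4 without ACreb3l2 replicate 2 (-0.02), for Hapln4 and Cgref1 without ACreb3l2/AXBP1 replicate 1, and for Rhd without ACreb3l2/AXBP1 replicate 2. Depth limits Slc1a7 and Rhd most, with 2 to 34 and 6 to 15 raw reads per library with ACreb3l2.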
